A study of Homo sapiens with 6 samples.

Results

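Syntenins, syndecans and the machinery that makes exosomes were described here through 10 genes of the 38637 in the expression table of HCCLM3-SR cells after cDCBLD2 knockdown. The 10 genes are SDCBP and SDCBP2 (syntenin-1 and syntenin-2), PDCD6IP (ALIX), TSG101, the tetraspanins CD63, CD81 and CD9, and the syndecans SDC1, SDC2 and SDC4. They were taken from the table by symbol, and all 10 were found. The set was chosen by the measured TPM of SDCBP2, which earlier results of these libraries had placed among the most raised genes, so its values are given as a description without a test. The other 9 genes belong to the same pathway by their known functions.

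HCCLM3-SR is a human hepatocellular carcinoma (HCC) line that was made resistant to sorafenib, a multikinase inhibitor, by slowly rising doses of the drug. Polyadenylated RNA was sequenced from 3 libraries of cells transfected with si-cDCBLD2, an siRNA against the circular RNA cDCBLD2, and from 3 libraries of cells transfected with siCTRL, the control siRNA. All 6 libraries shared the resistant background, the 5 µM sorafenib and the 3 days of transfection, so the comparison asks what knockdown changes in resistant cells under the drug. The labels do not say whether the 3 libraries of a group came from separate cultures, and p-values then measure only the spread between these libraries, which may be technical.

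Exosomes are small vesicles that form when the membrane of an endosome buds inward and that leave the cell when this endosome fuses with the plasma membrane. Syndecans are transmembrane proteoglycans that carry heparan sulfate chains. Syntenin-1 binds the tails of syndecans and of CD63 through its PDZ domains and binds ALIX through its N-terminal part, and ALIX links this cargo to the ESCRT proteins, which bud and cut the membrane. Syntenin-2 has the same pair of PDZ domains and is much less studied.

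The study treats cDCBLD2 as a sponge for the microRNA miR-345-5p, so this sequence and its matches in the 10 genes are shown first, with the seed (bases 2 to 8) or its match in capitals. The mature sequence is from RefSeq (GRCh38.p14, chromosome 14, 100307876 to 100307897, plus strand), and the windows of 22 bases are from GENCODE release 29 transcripts on GRCh38.
hsa-miR-345-5p: gCUGACUCcuaguccagggcuc
CD63, coding sequence, chromosome 12, 55727282 to 55727303, minus strand: gcacagcttgtcctGAGTCAGa
CD9, end of the stop codon into the 3′ UTR, chromosome 12, 6237814 to 6237835, plus strand: cgcgagatggtctaGAGTCAGc
On the sense strand of the longest protein-coding transcript of each gene, the 7 bases that pair with the seed (GAGTCAG) were found inside the coding sequence or 3′ UTR of 1 member, CD63, and across the stop codon of CD9. Among the 11522 expressed protein-coding genes with such a transcript, 22.1% had a match in the coding sequence or 3′ UTR. A match of letters is a description and does not show a site of binding.

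The measurement was TPM, an abundance per gene in which reads are divided by gene length and the total of a library is set to 1000000. Whole reads could be recovered from the ratios of the TPM values, and gave between 17492673 and 23064302 reads per library. Of the 13980 genes tested with limma on log2(TPM + 1), the adjusted p (Benjamini-Hochberg over all genes tested) was under 0.05 for 0.88% (0.25% higher and 0.629% lower after knockdown), and for 35% (9.94% higher and 25% lower) once the replicate number was used as a block. The median log2 fold change of all genes tested was -0.084. Scaling changed the balance of calls, from 35 higher and 88 lower to 59 and 62 with upper-quartile scaling. Log2 fold changes rose with the GC content of the transcript (Spearman's rho 0.64, as a description across 12970 genes), so values are also given after a loess trend on GC content was taken out of every library (the GC-content offset). That offset left 0.0154% of genes called higher and 0.0154% called lower, and with the block 11.8% and 13.5%. DCBLD2, the host gene of cDCBLD2, was at 58.1, 25.9 and 31.6 TPM after knockdown and at 71.5, 48.5 and 50.7 TPM in control cells (log2 fold change -0.61, limma adjusted p = 0.253, blocked 0.0139), and its log2 fold change was -0.28 with the GC-content offset (limma adjusted p = 0.0499 with the block). The groups overlapped. These values come from polyadenylated RNA and give no separate measure of the circular RNA, so they do not show its knockdown. The paper reports no obvious consistent change in DCBLD2 mRNA or protein across its resistant lines after knockdown. Of the liver markers, AFP, ALB, APOA1 and GPC3 lay at or below 2.08 TPM in the 6 libraries, as did the epithelial EPCAM (0.0686 to 0.323 TPM), whereas the keratins KRT8 (2999 to 4413 TPM) and KRT18 (1800 to 2555 TPM) were abundant. Markers of other cells ranged widely, with PTPRC from 0.231 to 0.411 TPM, PECAM1 from 3.63 to 5.64 TPM and VIM from 22.7 to 28.5 TPM. COL1A1, a fibroblast collagen, was at 11.2, 3.61 and 3.64 TPM after knockdown and at 3.35, 1.13 and 2.15 TPM in control cells. With the block, 3 of the 6 markers tested were called higher (COL1A1, KRT8 and KRT18) and 0 lower. The part of these markers in the results was not tested. In bulk RNA, fewer cells of a type and less RNA per cell cannot be told apart.

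In control cells the members differed widely in level. CD63 was the most abundant at 789 ± 9.65 TPM (SD, n = 3), followed by CD9 at 223 ± 2.40 TPM, SDC1 at 125 ± 3.71 TPM, SDC4 at 87.1 ± 3.70 TPM and TSG101 at 70.9 ± 1.45 TPM. SDCBP at 61.5 ± 5.16 TPM and PDCD6IP at 58.7 ± 5.34 TPM came next, and the libraries of these neighbours overlapped. SDCBP2 was far lower, at 2.60 ± 0.516 TPM, and CD81 and SDC2 had means of 0.253 and 0.0548 TPM. After knockdown the order was the same except that SDC4 (110 to 112 TPM) stood above SDC1 (92.6 to 109 TPM), and the libraries of TSG101, SDCBP and PDCD6IP overlapped from one neighbour to the next.

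**Figure D1:**
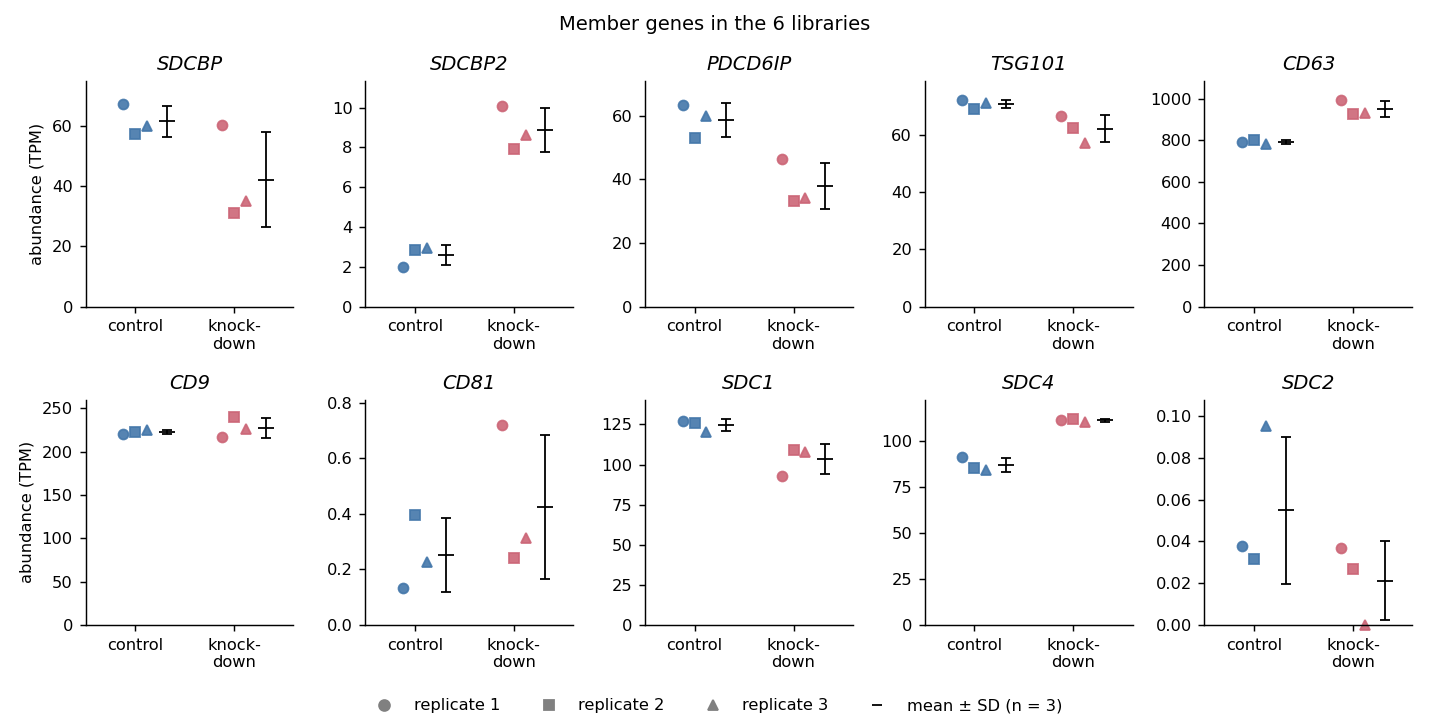
Abundance in TPM (y axis, from 0, a separate scale for each gene) of the 10 member genes in the 3 control (blue) and 3 knockdown (red) libraries, with the replicate number as the symbol and the mean ± SD beside each group. The groups are apart for SDCBP2, PDCD6IP, TSG101, CD63, SDC1 and SDC4, and overlap for SDCBP, CD9, CD81 and SDC2.

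Of the 10 members, 8 had a mean of at least 1 TPM and were tested, and CD81 and SDC2 were not. SDCBP2 is counted apart from the other 7, since its rise chose the set. The knockdown libraries lay all above the control libraries for 2 of the 7 (CD63 and SDC4), as for SDCBP2, and all below them for 3 (PDCD6IP, TSG101 and SDC1), where the groups of 31.9% of all genes tested did not overlap (9.58% higher and 22.3% lower). Without the block, limma called 0 of the 7 at the adjusted p, where it called 0.88% of all genes, and 0.129% at an absolute log2 fold change over 1. The unadjusted p was under 0.05 for 6 of the 7, and for 3654 of the 13980 genes tested. With the replicate block, 2 of the 7 were called higher (SDC4 and CD63) and 3 lower (PDCD6IP, SDCBP and SDC1), beside the 35% of all genes that the block calls (9.94% higher and 25% lower). Knockdown replicate 1 decided several calls, since the unblocked fit without it called SDCBP, PDCD6IP, CD63 and SDC4, and with them 4.64% of all genes as higher and 19.8% as lower. Limma-voom on the recovered reads with the block called 2 of the 7 higher and 2 lower (SDC1 was not called), where it called 38% of all genes (17.5% higher and 20.5% lower). The median log2 fold change of all 8, SDCBP2 included, was -0.080. Without SDCBP2 the middle value of the 7 was that of TSG101, -0.19, beside a median of -0.084 for all genes tested.

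After knockdown SDCBP2 was higher in every library, whereas SDCBP was lower in 2 of 3 libraries than any control library. SDCBP2 (chromosome 20, 1309909 to 1329239, minus strand, GRCh38) was at 10.1, 7.93 and 8.60 TPM in the libraries with si-cDCBLD2 (replicates 1 to 3), against 2.01, 2.86 and 2.94 TPM with siCTRL. The lowest knockdown library was well above the highest control library, and the mean was 3.41-fold that of control cells. The log2 fold change on the log2(TPM + 1) scale was 1.46 (standard error 0.16), and the changes within pairs of the same replicate number were 1.88, 1.21 and 1.29. The counts behind these values were 119, 127 and 128 recovered reads after knockdown and 23, 39 and 40 in control cells. Removing the trend with GC content gave 1.40.

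SDCBP (chromosome 8, 58552924 to 58582860, plus strand) was at 60.2, 31.0 and 35.0 TPM in the libraries with si-cDCBLD2 (replicates 1 to 3), against 67.3, 57.4 and 59.9 TPM with siCTRL. Knockdown replicate 1 lay within the range of the control libraries, and the other two knockdown libraries lay below it. The log2 fold change was -0.59 (SE 0.24) with a limma adjusted p of 0.179, or 0.0263 in the blocked fit. After the GC-content offset it was -0.19 and not called with the block (limma adjusted p = 0.165), and without knockdown replicate 1 it was -0.88 (limma adjusted p = 0.0125, no block). SDCBP transcripts have a GC content of 39.2% and SDCBP2 transcripts one of 55.5%.

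As a share of SDCBP within each library, SDCBP2 stood at 16.8%, 25.6% and 24.5% after knockdown and at 2.98%, 4.98% and 4.91% in control cells. SDCBP thus remained the more abundant syntenin mRNA in every library. The summed TPM of both was 51.0 ± 16.9 (SD, n = 3) after knockdown and 64.1 ± 4.67 in control cells, with overlapping groups.

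Other annotated genes share the SDCBP2 locus. FKBP1A-SDCBP2, listed in the table as a long noncoding RNA and placed by RefSeq (GRCh38.p14) on chromosome 20 from 1309909 to 1393172, joins SDCBP2 with its neighbour FKBP1A, which encodes a prolyl isomerase that binds the drug FK506. FKBP1A-SDCBP2 was at 15.8, 16.8 and 16.0 TPM after knockdown and at 7.64, 10.5 and 11.1 TPM in control cells, so it was more abundant than SDCBP2 itself in every library and its groups did not overlap. FKBP1A was at 446, 432 and 434 TPM after knockdown and at 436, 408 and 414 TPM in control cells, which overlap (log2 fold change 0.06, 95% interval -0.08 to 0.20 by limma). How the authors shared reads between SDCBP2 and the joined gene is not stated, so the level of SDCBP2 alone is uncertain. Summed over both, the recovered reads were 304, 394 and 364 after knockdown and 110, 181 and 190 in control cells, and the summed TPM was 25.0 ± 0.726 (SD, n = 3) against 12.3 ± 2.36. The sum was higher in 3 of 3 knockdown libraries, and its mean was 2.03-fold that of control cells, against 3.41-fold for SDCBP2 alone.

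SDCBP2-AS1 (1325405 to 1378734, plus strand) overlaps the start of SDCBP2 on the opposite strand. It was at 3.43, 3.51 and 2.97 TPM after knockdown and at 2.20, 5.32 and 4.03 TPM in control cells, and the groups overlapped. Its log2 fold change was -0.12 (95% interval -0.73 to 0.48 by limma). No strand setting is stated in the sources used here, so reads from SDCBP2 and its antisense partner cannot be told apart.

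**Figure D2:**
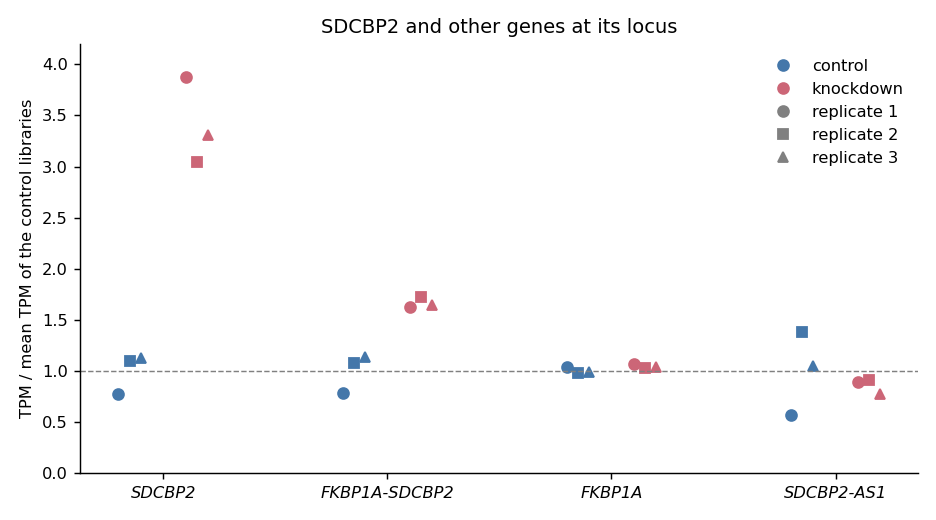
TPM divided by the mean of the control libraries (y axis, from 0) for SDCBP2, FKBP1A-SDCBP2, FKBP1A and SDCBP2-AS1, with control libraries in blue, knockdown libraries in red and the replicate number as the symbol. SDCBP2 and FKBP1A-SDCBP2 lie above their control libraries in all 3 knockdown libraries, whereas FKBP1A and SDCBP2-AS1 overlap.

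Across the 6 libraries, the 5 genes tested whose log2(TPM + 1) followed that of SDCBP2 most closely were SRC (Pearson's r 0.998), SERINC2 (0.998), PLCD3 (0.997), EEPD1 (0.997) and MGAT4B (0.996). These points share libraries and fall into the 2 groups, so the likeness is a description. The sizes differed, with log2 fold changes of 0.18 for SRC, 0.49 for SERINC2, 0.56 for PLCD3, 0.25 for EEPD1 and 0.26 for MGAT4B.

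The partners that link syntenin to the ESCRT proteins were lower after knockdown in every pair. PDCD6IP (chromosome 3, 33798352 to 33869707, plus strand), which encodes ALIX, was at 46.3, 33.2 and 34.3 TPM in the libraries with si-cDCBLD2 (replicates 1 to 3), against 63.4, 52.9 and 59.9 TPM with siCTRL. The groups did not overlap, and in both groups replicate 1 had the highest value. Its log2 fold change came to -0.63 (SE 0.14) with a limma adjusted p of 0.0744, or 0.00627 in the blocked fit. After the GC-content offset it was -0.25 and was still called with the block (limma adjusted p = 0.0209), and without knockdown replicate 1 it was -0.78 (limma adjusted p = 0.0129, no block). PDCD6IP transcripts have a GC content of 39.9%, close to that of SDCBP.

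TSG101 (chromosome 11, 18468336 to 18527232, minus strand), the subunit of ESCRT-I that binds ALIX and ubiquitinated cargo, was at 66.8, 62.5 and 57.4 TPM after knockdown and at 72.1, 69.3 and 71.2 TPM in control cells. The groups did not overlap, but the gap between them was small. Knockdown over control, the log2 fold change was -0.19 (95% interval -0.37 to -0.01, limma adjusted p = 0.181, blocked 0.0507), and it turned to 0.05 with the GC-content offset. Within a library, the ratio of PDCD6IP to TSG101 TPM was 0.693, 0.531 and 0.597 after knockdown and 0.879, 0.764 and 0.841 in control cells (p = 0.1 by a two-sided exact permutation test, which 3 libraries against 3 cannot go below).

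Among the tetraspanins, which organise cargo in the vesicle membrane, the groups lay apart for CD63 and overlapped for CD9. CD63 (chromosome 12, 55725323 to 55729707, minus strand) was at 993, 925 and 929 TPM in the libraries with si-cDCBLD2 (replicates 1 to 3), against 790, 799 and 779 TPM with siCTRL. The groups were apart by more than the whole range of either group, at 1.20-fold between the means. The log2 fold change was 0.27 (SE 0.06) with a limma adjusted p of 0.0736, or 0.00914 in the blocked fit, and it was 0.22 with the GC-content offset (limma adjusted p = 0.0192 with the block). Without knockdown replicate 1 it was 0.23 (limma adjusted p = 0.0334, no block). The antisense gene CD63-AS1 was at 18.0 to 21.3 TPM over the 6 libraries, a small level beside that of CD63.

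CD9 (chromosome 12, 6199715 to 6238271, plus strand) was at 217, 240 and 226 TPM after knockdown and at 221, 223 and 226 TPM in control cells. The control libraries lay inside the range of the knockdown libraries. Its log2 fold change came to 0.03 (95% interval -0.12 to 0.18, limma adjusted p = 0.809, blocked 0.657). The ratio of CD63 to CD9 TPM was 4.59, 3.86 and 4.10 after knockdown and 3.58, 3.58 and 3.45 in control cells, with no overlap (p = 0.1 by the same exact permutation test).

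CD81 (chromosome 11, 2376177 to 2397419, plus strand), a tetraspanin that hepatitis C virus uses to enter cells, was barely present. It was at 0.722, 0.241 and 0.312 TPM after knockdown and at 0.135, 0.397 and 0.227 TPM in control cells, from 2 to 11 recovered reads per library. Both ranges overlapped (p = 0.4 by a two-sided exact permutation test), and a difference was not detectable at this depth.

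Among the syndecans, SDC4 was higher and SDC1 lower in all 3 knockdown libraries. SDC4 (chromosome 20, 45325288 to 45348424, minus strand), a syndecan of focal adhesions, was at 112, 112 and 110 TPM in the libraries with si-cDCBLD2 (replicates 1 to 3), against 91.3, 85.6 and 84.4 TPM with siCTRL. The groups did not overlap, and the knockdown libraries differed from each other by less than 2 TPM. Knockdown over control, the log2 fold change was 0.35 (SE 0.06) with a limma adjusted p of 0.0544, or 0.00667 in the blocked fit, and it was 0.43 with the GC-content offset (limma adjusted p = 0.00663 with the block). The unblocked fit called it with upper-quartile scaling (limma adjusted p = 0.047) and without knockdown replicate 1 (0.0202, at a log2 fold change of 0.35).

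SDC1 (chromosome 2, 20200797 to 20225433, minus strand), the main syndecan of epithelial cells, was at 92.6, 109 and 108 TPM in the libraries with si-cDCBLD2 (replicates 1 to 3), against 127, 126 and 120 TPM with siCTRL. No library with si-cDCBLD2 reached the lowest siCTRL library. The log2 fold change was -0.27 (SE 0.08) with a limma adjusted p of 0.113, or 0.0308 in the blocked fit. Without knockdown replicate 1 it was -0.20 and not called (limma adjusted p = 0.0618, no block). It was -0.39 with the GC-content offset (limma adjusted p = 0.0116 with the block), and -0.17 by limma-voom on recovered reads with the block, which did not call it (limma adjusted p = 0.0929).

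SDC2 (chromosome 8, 96493351 to 96611780, plus strand), a syndecan mostly of mesenchymal cells, had 1, 1 and 0 recovered reads after knockdown and 1, 1 and 3 in control cells. The 3 reads that a count of 0 allows correspond to between 0.0809 and 0.113 TPM, so both groups were at or under this floor and no fold is given. Recovered reads are lower bounds, and the floor covers counting error only.

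SDC3, the remaining syndecan, was at 41.5, 38.7 and 41.1 TPM after knockdown and at 38.5, 34.5 and 36.4 TPM in control cells (log2 fold change 0.15, limma adjusted p = 0.258, blocked 0.0692). Pseudogenes held few reads, at most 1 recovered read for SDC4P and 4 for the ALIX copy PDCD6IPP2. Summed over SDC1 to SDC4, the level was 255 ± 7.99 TPM (SD, n = 3) after knockdown and 248 ± 8.10 TPM in control cells, with overlapping groups (p = 0.3 by a two-sided exact permutation test). SDC1 made up 50.2 ± 0.906% of this sum in control cells and 40.4 ± 2.40% after knockdown. SDC4 made up 35.1 ± 0.397% in control cells and 43.7 ± 1.53% after knockdown. The ratio of SDC4 to SDC1, which does not depend on the scaling of a library, was 1.20, 1.02 and 1.02 after knockdown and 0.718, 0.678 and 0.701 in control cells (p = 0.1 by the same exact permutation test). SDC4 was therefore the more abundant of the pair in 3 of 3 knockdown libraries and in 0 of 3 control libraries.

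**Figure D3:**
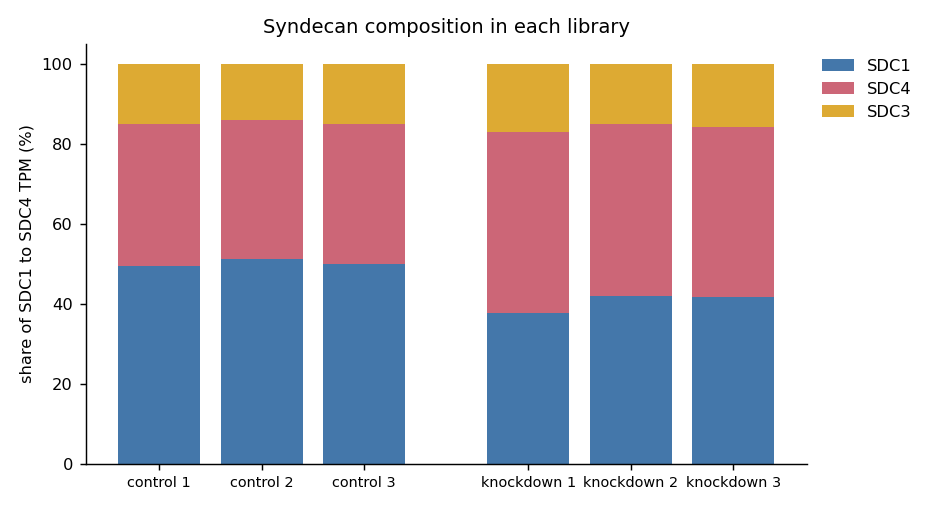
Share of the summed SDC1, SDC2, SDC3 and SDC4 TPM (y axis, %) in each control and knockdown library, with SDC1 in blue, SDC4 in red and SDC3 in yellow, and SDC2 too small to draw. The SDC1 part is 49.5% to 51.2% in the control libraries and 37.7% to 42.0% in the knockdown libraries.

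**Figure D4:**
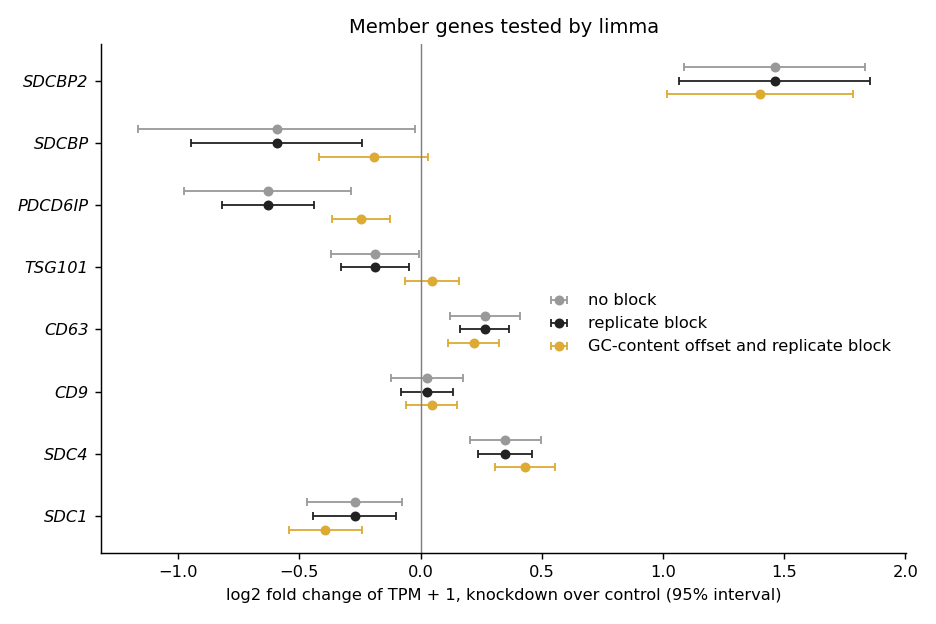
Log2 fold change of TPM + 1, knockdown over control (x axis), of the 8 members tested, with 95% intervals from limma without a block (grey), with the replicate block (black) and with the GC-content offset and the block (yellow). SDCBP2, shown as a description, lies near 1.5 in the 3 fits, SDC4 and CD63 lie above 0 and SDC1 below 0, whereas SDCBP, PDCD6IP and TSG101 lie closer to 0 after the offset.

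A further 103 genes of the pathway in 5 lists were set beside the members, and 88 of them were tested. Without the block, 1 of the 88 was called higher and 0 lower by limma (adjusted p under 0.05), against 0.25% and 0.629% of all genes tested. In the blocked fit, 17 were called higher and 10 lower, against 9.94% and 25% of all genes tested. The median log2 fold change of the 88 was 0.03.

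Of the 20 tetraspanins and partners tested, the blocked fit called 7 higher (9.94% of all genes) and 0 lower (25% of all genes), and 13 were not called. Without the block 1 was called (0.88% of all genes), and 0 with the GC-content offset and no block (0.0308% of all genes). The median log2 fold change was 0.13. With the GC-content offset and the block, 7 were again called higher and 0 lower, of which 5 were among the first 7, against 11.8% of all genes called higher in that fit. CD151, which pairs with laminin-binding integrins, was at 883, 845 and 885 TPM after knockdown and at 627, 616 and 636 TPM in control cells. Its log2 fold change was 0.48 (SE 0.06) with a limma adjusted p of 0.0444, or 0.00436 in the blocked fit, and it was the pathway gene called without the block. After the GC-content offset its unblocked call was lost (0.34, limma adjusted p = 0.107). TSPAN8, a tetraspanin of digestive epithelia and their tumours, was at 416, 232 and 226 TPM after knockdown and at 201, 139 and 156 TPM in control cells (log2 fold change 0.77, limma adjusted p = 0.134, blocked 0.00669). TSPAN1 was at 10.1, 11.2 and 10.9 TPM after knockdown and at 4.59, 6.73 and 7.40 TPM in control cells (log2 fold change 0.72, limma adjusted p = 0.0782, blocked 0.00991). All 3 were named as the largest rises called with the block. Their groups did not overlap, as was so with knockdown higher for 9.58% of all genes tested. TSPAN8 was at 1.13 with the GC-content offset (limma adjusted p = 0.00305 with the block).

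Other ESCRT subunits were called in both directions. In the blocked fit, 5 of the 29 tested were called higher, 4 lower and 20 were not called, with a median log2 fold change of 0.01, where 9.94% of all genes were called higher and 25% lower. Among those called lower, VPS36, a subunit of ESCRT-II, had the lowest value at -0.61 (limma adjusted p = 0.0119 with the replicate block). CHMP2B of ESCRT-III at -0.43 (0.00653) and VPS37A of ESCRT-I at -0.42 (0.0174) followed. STAM2 was at -0.47 and was not called (0.0739). VPS37B, an alternative to VPS37A in ESCRT-I, was highest at 0.45 (limma adjusted p = 0.0116 with the replicate block), and the ESCRT-III proteins CHMP1A and CHMP4B were at 0.18 (0.0357) and 0.16 (0.031). These calls changed with the GC-content offset: in the blocked fit 0 were called lower and 7 higher (13.5% and 11.8% of all genes), and 1 of the 7, VPS37B, was among those called higher before. CHMP2B was then at 0.002 and VPS37A at -0.02.

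Another list holds SDC3, glypican genes, and genes that build, modify or cleave heparan sulfate, the sugar chain of syndecans. Of the 18 tested with the replicate block, 3 were called higher (9.94% of all genes), 4 lower (25% of all genes) and 11 were not called, and the median log2 fold change was 0.02. EXTL2, a glycosyltransferase that acts on the linker of the chain, was lowest at -0.66 (limma adjusted p = 0.0139 with the replicate block), followed by the 2-O-sulfotransferase HS2ST1 at -0.50 (0.0107) and the epimerase GLCE at -0.45 (0.0246). NDST1, which replaces acetyl by sulfate groups, was highest at 0.27 (limma adjusted p = 0.0136 with the replicate block), followed by the linker enzyme B3GAT3 at 0.18 (0.0214) and the chain polymerase EXT1 at 0.16 (0.0398). After the GC-content offset and the block, EXT1 (0.43), NDST1 (0.20) and EXTL2 (-0.37) were called, where 11.8% of all genes were called higher and 13.5% lower, whereas HS2ST1 was at -0.07 and GLCE at -0.05. The heparanase gene HPSE, the sulfatase genes SULF1 and SULF2 and the glypican gene GPC3 were among the 8 listed genes with a mean under 1 TPM.

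The next list holds genes of vesicle trafficking and release. In the blocked fit, which called 35% of all genes, 1 of the 16 tested was called higher (YKT6, a SNARE, 0.14, limma adjusted p = 0.045) and 1 lower (PLD1, a phospholipase D, -0.52, limma adjusted p = 0.0439), and 14 were not called. With the GC-content offset and the block, 0 were called lower and 3 higher (13.5% and 11.8% of all genes), and 0 of these had been called before. Named for their role and after their values were seen, ARF6 and PLD2, which control the budding of syntenin cargo, had log2 fold changes of -0.13 (limma adjusted p = 0.0775 with the replicate block) and 0.06 (0.41). The small GTPases RAB27A and RAB27B, which dock the endosome at the plasma membrane, were at -0.19 (0.298) and -0.22 (0.235).

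Of the other binding partners of syntenin-1, 5 of 6 were tested. With the replicate block, the kinase SRC was called higher (log2 fold change 0.18, limma adjusted p = 0.0246), as were 9.94% of all genes. TRAF6, a ubiquitin ligase of immune signalling, was called lower (-0.50, limma adjusted p = 0.0364), as were 25% of all genes. After the GC-content offset SRC was at 0.07 and TRAF6 at -0.17, and 0 of the 5 were called with the block.

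**Figure D5:**
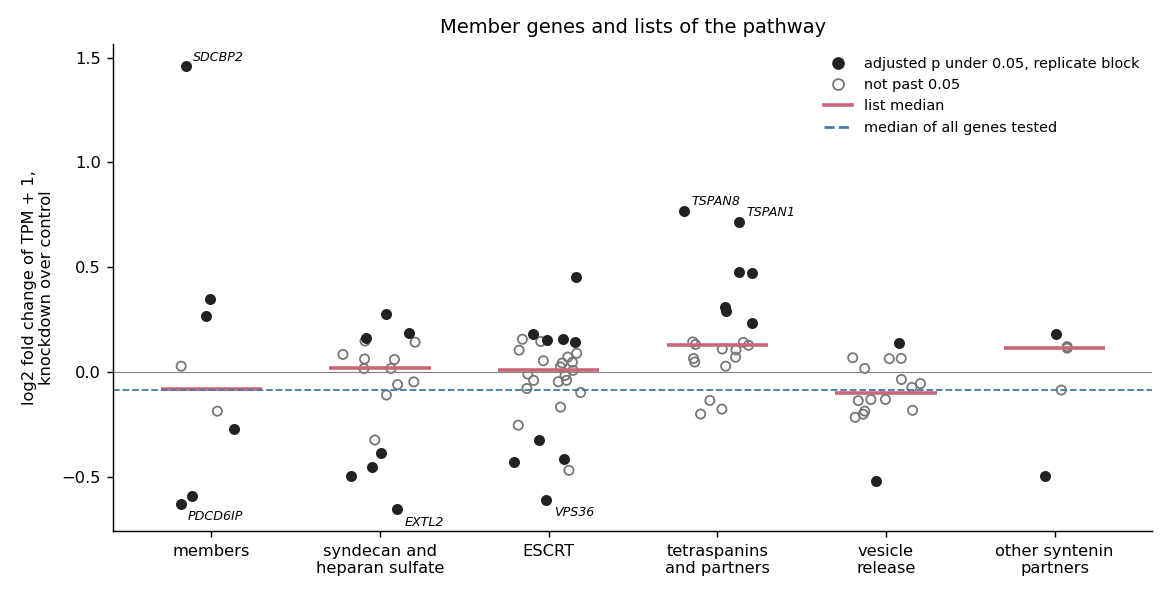
Log2 fold change of TPM + 1, knockdown over control (y axis), of each member and pathway gene tested, by list (x axis), filled where the limma adjusted p with the replicate block is under 0.05, with the list median in red and the median of all genes tested as a dashed line. SDCBP2, which chose the set, is filled by the same rule but is shown as a description, and the member median includes it. In the tetraspanin list 7 genes are filled, all above 0, whereas the ESCRT and heparan sulfate lists have filled points on both sides of 0.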

How the data were processed

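The authors deposited one table of TPM values per gene for 6 libraries, and the submitters' processing notes name fastp 0.20.1, HISAT2 2.1.0, StringTie 2.0 and the build hg38. The annotation, strand and multimapping settings are not given in the sources used here, so genes that overlap or have copies are uncertain. The members and lists were chosen with earlier results of these data known.

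Genes averaging 1 TPM or more over the 6 libraries were tested on log2(TPM + 1) with limma 3.58.1 (trend option) in R 4.3.3. This log scale understates changes of low genes. Calls used a Benjamini-Hochberg adjusted p under 0.05 over all 13980 genes. Fits had no block unless stated. Libraries with the same replicate number in the labels deviated together (correlations of 0.56, 0.343 and 0.362 over the genes tested), so blocked values are printed too. What a replicate number marks is not in the labels, and these correlations alone do not establish a pairing. GC content and length are those of the longest GENCODE release 29 transcript of a symbol, found for 92.8% of the genes tested, and trends were removed by loess (span 0.5). Reads were recovered as the smallest whole numbers in the ratio of a gene's values, after 1 scaling factor per library was estimated (tolerance 0.01), which succeeded for 100% of the 17285 genes above 0 in all libraries. They are lower bounds, and limma-voom used genes with at least 10 reads in 3 libraries and size factors from median ratios. The fit was also run on simulated data that held no GC trend and no replicate effect, so that run does not cover these features. Its share of false calls was above the level that the threshold sets. Named pathway genes were up to 3 per list and direction with the largest change among those called with the block, and any called without it. Values were also compared by exact permutation tests. Python 3.11.15, pandas 2.3.3, numba 0.67.0, scipy 1.17.1 and matplotlib 3.10.9 were used.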

Additional observations from a re-analysis of the deposited data

How the results depend on the processing

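Counts of members here leave out SDCBP2, whose rise chose the set, and cover the 7 others tested. Without the block, 0 members were called higher and 0 lower by limma, and 1 and 0 of the pathway genes. In that fit, 0.25% of all genes were called higher and 0.629% lower. Members called higher were 1 with upper-quartile scaling (59 of 13980 genes called higher) and 1 with protein-coding genes only (106 of 11793). They were 1 with the transcript-length offset (167 of 12970). They were 0 without a filter on low values (3 of 25278, and 4160 genes had an unadjusted p under 0.05) and 0 with the GC-content offset (2 of 12970, and 2748 genes). With limma-voom on recovered reads they were 2 (193 of 15018). Pathway genes called higher were 0 without the filter, 0 with the GC-content offset, 3 with the length offset and 3 with limma-voom. With the replicate block, 2 members were called higher and 3 lower, and 17 and 10 pathway genes, where 35% of all genes were called. With the GC-content offset and the replicate block these were 2 and 2 members, and 19 and 1 pathway genes, where 25.3% of all genes were called. With limma-voom and the replicate block they were 2 and 2 members, and 33 and 11 pathway genes. That fit called 38% of all genes (17.5% higher and 20.5% lower). With 1 library left out, 0 to 2 members were called higher and 0 to 2 lower, and 0 to 6 and 0 to 9 pathway genes. All calls came from the fit without knockdown replicate 1, which called 4.64% of all genes higher and 19.8% lower. Leaving out any of the other 5 libraries called 0 genes (2161 to 2803 genes had an unadjusted p under 0.05). The log2 fold change of SDCBP2 stayed between 1.34 and 1.85 over 16 alternatives. TSG101 turned to 0.0464 with the GC-content offset, with and without the block, and CHMP2B to 0.0021. CD9 ranged from -0.0108 (without knockdown replicate 2) to 0.0621 with 1 library left out. The cause of these differences was not tested, save that fewer genes or libraries enter some fits. Depth limited SDCBP2 (23 to 128 reads), CD81 and SDC2.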
